A study of Homo sapiens with 30 samples.

Results

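The comparison described here sets K562 cells mutated at the CTCF site S5 against K562 cells mutated at the CTCF site S4, at the 3 viewpoints of a 4C-seq series on the NOTCH1 locus. Libraries titled as S5 mutant or S4 mutant were taken, 2 per genotype and viewpoint, which gave 12 of the 30 libraries of the series. The read counts per restriction fragment end were used, and ends within 5 kb of a library's own viewpoint were left out. K562 is a human chronic myeloid leukaemia cell line. The first group is K562 labelled as mutated at S5 alone, and the second is K562 labelled as mutated at S4 alone. Neither group is unedited, and no wild-type library entered a comparison, though wild-type reads counted in placing the viewpoint centres. The kind and exact position of each mutation, the position of S5, and whether each genotype is a single clone are not given in the labels. Chromosome 9 contact counts hold no expression markers, so the labelled cell type was not checked.

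CTCF is a zinc-finger protein that binds an oriented DNA motif. The cohesin ring extrudes chromatin loops and halts at bound CTCF, so that CTCF sites often mark loop anchors and the borders of contact domains. NOTCH1 encodes a transmembrane receptor of the Notch pathway, whose cleaved intracellular part enters the nucleus and acts in transcription. In 4C-seq, cross-linked chromatin is cut and ligated, and the fragments joined to a chosen bait, the viewpoint, are amplified and counted. A high count at a fragment end means that this place was often ligated to the viewpoint.

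In hg19 coordinates on chromosome 9, the promoter viewpoint was centred at 139443268, S2 at 139385872 and S4 at 139523746. The centres come from all 10 libraries of a viewpoint, and the 4 libraries compared here alone would give the same centres for S2 and S4 and one 1296 bp more telomeric for the promoter. S2 thus lay 57.4 kb centromeric and S4 lay 80.5 kb telomeric of the promoter viewpoint, and the interval from S2 to S4 spanned 137.9 kb. In the RefSeq GRCh38 gene order, the protein-coding neighbours centromeric of NOTCH1 begin with SEC16A, which works in export from the endoplasmic reticulum, and INPP5E, a phosphoinositide phosphatase of the cilium. The telomeric neighbours begin with EGFL7, a secreted factor of endothelial cells, and AGPAT2, an acyltransferase of phospholipid synthesis. Bins are given by hg19 position only, since no hg19 annotation was used here, and genes, exons and UTRs were not assigned to them.

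The NOTCH1 promoter of RefSeq (GRCh38.p14, chr9:136545999-136546298, minus strand) is printed because its viewpoint is the one that reports on the gene itself. Capitals mark CCCTC, the short core letters that give CTCF its name, and the reverse complement GAGGG.
NOTCH1: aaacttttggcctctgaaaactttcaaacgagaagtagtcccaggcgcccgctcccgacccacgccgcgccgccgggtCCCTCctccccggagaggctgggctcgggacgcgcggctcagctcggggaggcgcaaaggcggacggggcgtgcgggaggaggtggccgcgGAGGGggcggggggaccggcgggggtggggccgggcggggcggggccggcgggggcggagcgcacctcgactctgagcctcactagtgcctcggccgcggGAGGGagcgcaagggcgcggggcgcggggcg
CCCTC occurred 1 time and GAGGG occurred 2 times in these 300 bases, and 71.2% of 35116 RefSeq promoters of the same length held at least 1 of them. GATC, the site of the first enzyme DpnII, had 0 matches in this window, and 41.7% of promoters held it. Sequences of S2, S4 and S5 were not used here.

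The 12 libraries held 5217082 to 7470622 chromosome 9 reads. Of these, 59.5 to 96.2% lay within 5 kb of the viewpoint, and 175946 to 2288603 reads per library were near-cis, meaning within 500 kb of the viewpoint and outside the 5-kb mask. All shares below are percentages of the near-cis reads of a library unless stated otherwise. The protocol calls the 2 libraries of a genotype independent without naming separate cultures, and p-values rest on a spread among libraries that may be technical. Reads carry no molecular identifiers and are not independent ligation events. Over near-cis fragment ends, log2 reads of the 2 libraries of a genotype correlated at r = 0.957 to 0.997, against 0.616 to 0.698 between an S5 and an S4 library (across ends, which are not independent). S5 and S4 libraries did not overlap in 93.8, 96.8 and 95.9% of the tested 10-kb bins at the promoter, S2 and S4, and a count of significant bins has to be read against that background.

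The clearest regional difference lay outside the interval from S2 to S4. At each of the 3 viewpoints the S5 mutant had fewer contacts centromeric of S2 and more contacts telomeric of S4 than the S4 mutant. The balance was expressed as the log2 ratio of reads telomeric of S4 to reads centromeric of S2, each without the 10 kb next to the site, which needs no scaling between libraries. From the promoter the ratio was 0.65 and 0.65 in the 2 S5 libraries, against -0.17 and -0.17 in the 2 S4 libraries. From S2 it was -0.02 and -0.02 in S5, against -0.80 and -0.79 in S4. From S4 it was 0.35 and 0.37 in S5, against -0.74 and -0.74 in S4. S5 libraries were thus higher at all 3 viewpoints, with no overlap, by 0.82, 0.78 and 1.10 log2 units at the promoter, S2 and S4 (n = 2 per genotype). With 2 libraries against 2, an exact two-sided permutation test cannot give a p below 0.333, so no single share or ratio is called significant here. The ratio was chosen after the data had been seen.

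**Figure D1:**
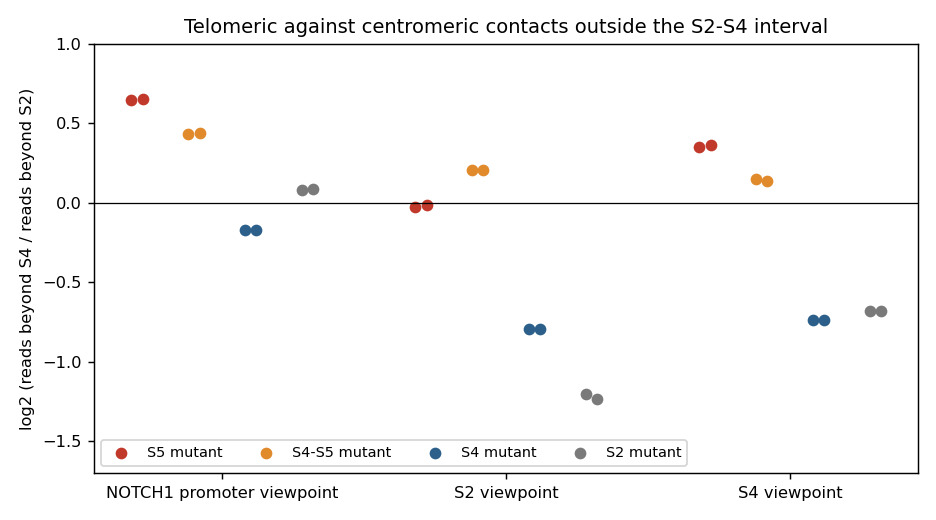
Log2 ratio of near-cis reads telomeric of S4 to reads centromeric of S2 (vertical axis) at the 3 viewpoints, with 1 point per library and 2 libraries per genotype. The S5 mutant points (red) lie above the S4 mutant points (blue) at every viewpoint, and the S4-S5 and S2 mutants are shown for comparison.

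This difference was carried by how many reads the ends had more than by which ends had any. When each fragment end with at least 1 read was counted as 1, the differences in the ratio shrank to 0.16 for the promoter, 0.09 for S2 and 0.04 for S4. From S4 the covered-end ratios were -0.0027 and -0.0157 in S5, against -0.0216 and -0.0746 in S4. That difference was about as large as the spread among the libraries. With equal numbers of near-cis reads drawn, while chromosome 9 totals and mask shares still differed, fewer near-cis ends had a read in S5: 1238 ± 3.12 ends in S5 and 1360 ± 21.0 in S4 from the promoter (SD, n = 2 each). From S2 the numbers were 1364 ± 3.27 in S5 and 1468 ± 26.0 in S4, and from S4 they were 1416 ± 6.19 in S5 and 1471 ± 15.9 in S4. Groups did not overlap at any viewpoint, and their part in the contact differences was not tested. For regions, bins and windows, values with covered ends are shares of a library's own ends with a read. Since S5 had fewer such ends, equal numbers of covered ends give S5 a higher share.

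In absolute share, the centromeric deficit of S5 was deepest from the S4 viewpoint. Reads centromeric of S2 made up 21.0 and 20.9% in the S5 libraries there, against 33.0 and 33.0% in the S4 libraries. From S2 the same side held 20.0 and 19.5% in S5, against 26.6 and 26.3% in S4. From the promoter it held 10.6 and 10.5% in S5, against 13.7 and 13.8% in S4. Lower values in S5 were seen in every pairing of libraries.

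Telomeric of S4, the order was the opposite. The S4 viewpoint had 26.9 and 27.0% of its reads there in S5, against 19.8 and 19.8% in S4. The S2 viewpoint had 19.7 and 19.3% in S5, against 15.3 and 15.1% in S4. The promoter viewpoint had 16.7 and 16.6% in S5, against 12.2 and 12.3% in S4. At the S4 viewpoint the bait carries the name of the site labelled as mutated in the S4 mutant. A change of the bait and a change of its surroundings therefore cannot be told apart there.

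Between S2 and S4, without the 10 kb next to each of them, the viewpoints differed in direction. The promoter had less of its contact inside the interval in S5, 58.7 and 58.9%, against 63.6 and 63.4% in S4. The S2 viewpoint had more in S5, 41.9 and 42.8%, against 37.8 and 38.3% in S4. The S4 viewpoint also had more in S5, 27.1 and 27.5%, against 23.1 and 23.1% in S4.

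Restricting all 3 viewpoints to the stretch of chromosome that they share left the outer pattern in place. In that common window the log2 ratio of S5 to S4 shares centromeric of S2 was -0.28, -0.42 and -0.61 from the promoter, S2 and S4. Telomeric of S4 it was 0.51, 0.35 and 0.47. The interval from S2 to S4 gave -0.06 from the promoter, 0.06 from S2 and 0.15 from S4, so its sign depended on the viewpoint.

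The near-cis window was next divided into 9 regions by the viewpoint positions. The far centromeric region, which begins centromeric of the 100 kb next to the S2 site, was lower in S5 by a similar proportion at the promoter and at S2 and by more at S4. From the promoter it held 4.56 and 4.51% in S5, against 6.73 and 6.86% in S4, a log2 ratio of -0.58. From S2 it held 5.32 and 5.36% in S5, against 8.29 and 8.22% in S4, a log2 ratio of -0.63. From S4 it held 6.20 and 6.21% in S5, against 12.3 and 12.2% in S4, a log2 ratio of -0.98. The S5 value at the S4 viewpoint was thus 0.506 times that of the S4 mutant. In the 100 kb next to S2 on the same side the log2 ratios were smaller, -0.20, -0.34 and -0.49 from the promoter, S2 and S4. For the last 2 of these, shares of covered ends instead of reads turned the sign, to 0.03 from S2 and 0.01 from S4. The numbers of covered ends there were still lower in S5.

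On the telomeric side, which region held the excess of S5 differed by viewpoint. From the promoter the excess lay in the 100 kb next to S4, with 11.4 and 11.3% in S5, against 7.32 and 7.38% in S4, a log2 ratio of 0.62. Beyond that, the promoter had 5.30 and 5.29% in S5, against 4.86 and 4.88% in S4, a log2 ratio of 0.12 that turned to -0.0039 when the window was widened to 1 Mb and to -0.08 with covered ends. From S2 the excess lay farther out, where the far telomeric region held 6.19 and 6.06% in S5, against 3.39 and 3.35% in S4, a log2 ratio of 0.86. The 100 kb next to S4 had a log2 ratio of 0.17 from S2. From S4 both were higher in S5: the 100 kb next to S4 held 20.7 and 20.9% in S5, against 15.9 and 15.8% in S4, a log2 ratio of 0.39. The far telomeric region held 6.14 and 6.02% in S5, against 3.93 and 3.94% in S4 from the S4 viewpoint, a log2 ratio of 0.63 that turned to -0.08 with covered ends.

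**Figure D2:**
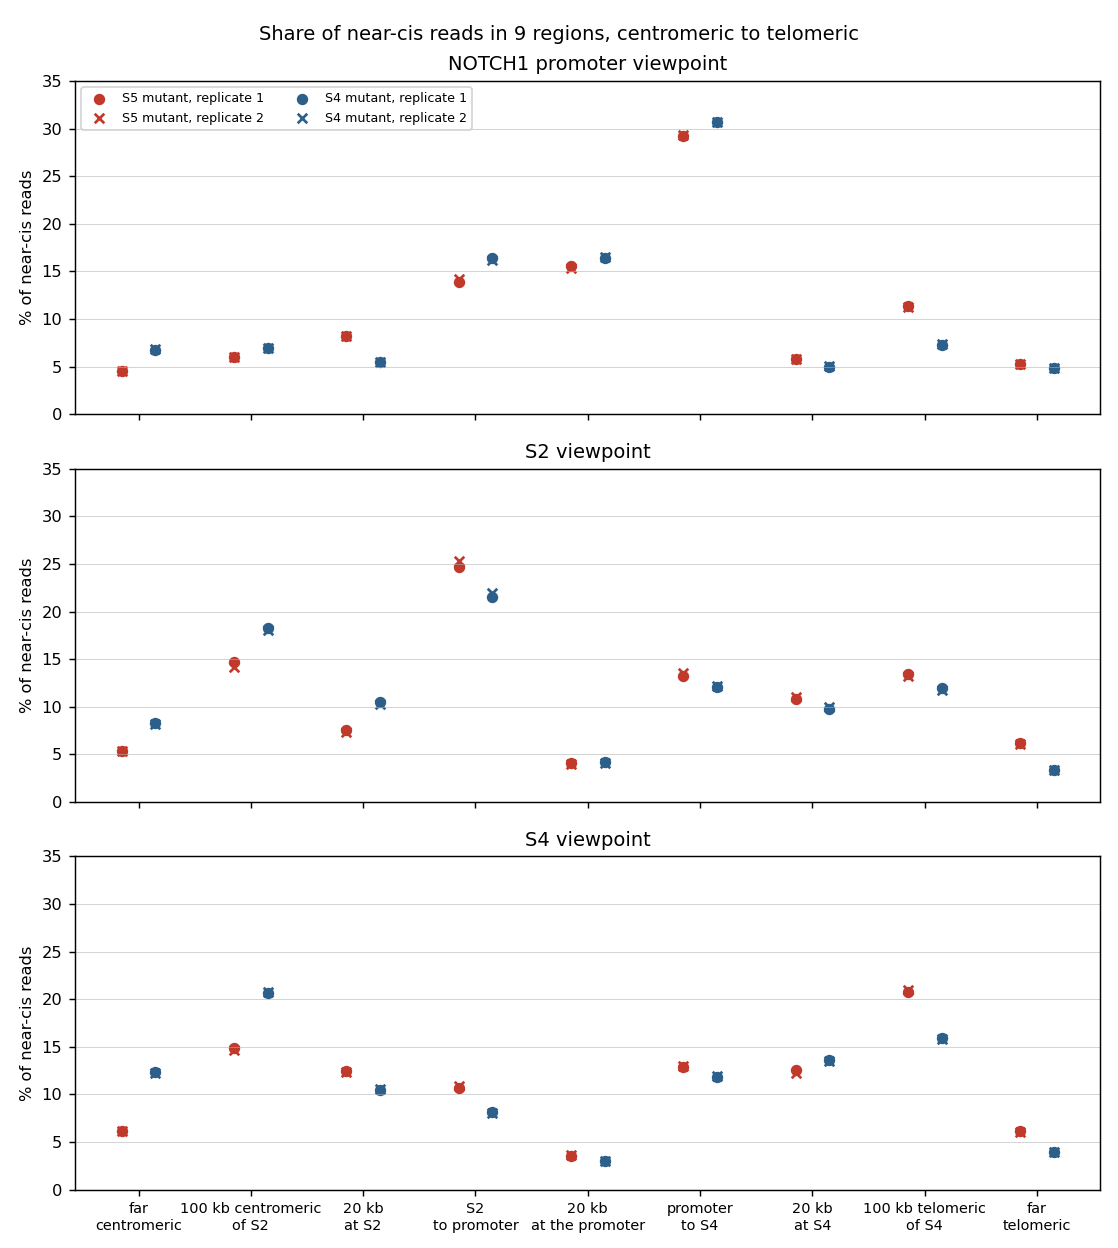
Percent of near-cis reads (vertical axis, from 0) in 9 regions ordered from centromeric to telomeric, 1 panel per viewpoint. Circles and crosses are the 2 libraries of a genotype, S5 mutant in red left of S4 mutant in blue. The far centromeric region is lower and the regions telomeric of S4 are higher in S5 in every panel, while the regions between S2 and S4 change order between panels.

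Inside the interval, the stretch from S2 to the promoter differed in direction between viewpoints when reads were counted. From the promoter it held 13.9 and 14.2% in S5, against 16.4 and 16.2% in S4. From S2 it held 24.7 and 25.3% in S5, against 21.5 and 22.0% in S4. From S4 it held 10.6 and 10.9% in S5, against 8.19 and 8.08% in S4. The log2 ratios were -0.22, 0.20 and 0.40 from the promoter, S2 and S4, but the sign from the promoter turned to 0.23 with covered ends, and that from S2 turned to -0.11 with non-blind ends alone (ends of fragments that hold a site of the second enzyme). The stretch from the promoter to S4 gave -0.07, 0.14 and 0.12. From the promoter that small deficit became an excess of 0.03 with TMM factors, of 0.13 with DESeq2 size factors and of 0.20 with covered ends.

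Contacts between the 3 sites were read from the 20 kb around each. The promoter contacted S2 more in S5, with 8.24 and 8.25%, against 5.49 and 5.46% in S4, a log2 ratio of 0.59. Seen from the other end, S2 gave the promoter 4.05 and 3.97% in S5, against 4.17 and 4.10% in S4, a log2 ratio of -0.04 that turned to 0.04 with DESeq2 size factors. The excess of contact between the promoter and S2 was therefore seen from the promoter and not from S2. Each viewpoint is normalised to its own near-cis reads and captured at its own fragment, and the 2 directions need not be equal.

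For the promoter and S4, both directions were higher in S5. The promoter gave S4 5.77 and 5.76% in S5, against 5.00 and 5.10% in S4, a log2 ratio of 0.19. S4 gave the promoter 3.58 and 3.66% in S5, against 3.05 and 3.05% in S4, a log2 ratio of 0.25. The same held for the pair of S2 and S4, the CTCF sites that flank the promoter. S2 gave S4 10.9 and 11.0% in S5, against 9.78 and 10.0% in S4, a log2 ratio of 0.14. The single 10-kb bin holding S4 had only 0.05 from S2 and did not pass the edgeR test described below. S4 gave S2 12.4 and 12.3% in S5, against 10.4 and 10.6% in S4, a log2 ratio of 0.23 that turned to -0.08 with non-blind ends alone.

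Reads close to the S4 centre were also examined as a check of the labels, since the S4 mutant is labelled as changed at S4. The labels do not give the position of that change. The S4 centre is the middle of the most covered 5-kb window of the S4 viewpoint. Within 2 kb of the S4 centre the promoter had 1.19 and 1.19% in S5, against 0.771 and 0.801% in S4, a log2 ratio of 0.60. From S2 the same 2 kb held 3.97 and 3.87% in S5, against 3.35 and 3.35% in S4, a log2 ratio of 0.23. No fragment end there had reads in both libraries of 1 genotype and in neither of the other. From S2 some ends still differed strongly, in both directions. The end at 139522917 had 5 and 3 reads in S5, against 780 and 1319 in S4. The end at 139525737 had 1146 and 1054 in S5, against 7 and 7 in S4. Whether such differences bear on the labels was not tested. Of the 9 ends in that stretch of the promoter libraries, 7 were covered in both S5 libraries and 8 in both S4 libraries. The S2 libraries had 14 ends there, with 12 covered in both S5 libraries and 14 in both S4 libraries. A small edit between restriction sites would not be seen in such counts, and no comparable check was made for S5.

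For single 10-kb bins, read counts were compared by the quasi-likelihood F test of edgeR. At the promoter viewpoint, 86 of 96 bins passed a Benjamini-Hochberg adjusted p of 0.05, which is 89.6% of those tested. Of these, 35 were higher in S5 (36.5% of bins tested) and 51 were lower (53.1%). With DESeq2, which brings its own size factors and its own Wald test, 41 were higher and 39 lower. DESeq2 moved the median bin by 0.20 on the log2 scale, and TMM factors in edgeR moved it by 0.10. At S2, 88 of 95 bins passed (92.6%), 40 higher (42.1%) and 48 lower (50.5%). At S4, 88 of 97 passed (90.7%), 43 higher (44.3%) and 45 lower (46.4%). Called bins with at least a 2-fold difference numbered 34 from the promoter (35.4%), 46 from S2 (48.4%) and 33 from S4 (34%). Passing the test was therefore the rule for a bin of these libraries and does not single out a place. With covered ends instead of reads, edgeR called 0 bins at each viewpoint, and 2, 1 and 0 bins had an unadjusted p under 0.05 at the promoter, S2 and S4. Such counts cannot exceed the number of ends in a bin, 39 in that from 139600001 at the promoter. They leave the test little room, so 0 calls do not show an absence of difference.

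The direction of the called bins differed with position, most clearly centromeric of S2. Centromeric of S2, 9 bins were higher and 26 lower of 40 from the promoter, with a median log2 fold of -0.62 against -0.19 over all bins. From S2, 11 were higher and 33 lower of 45, with a median of -0.71 against -0.09 over all bins. From S4, 3 were higher and 27 lower of 32, with a median of -0.67 against -0.05 over all bins. Lower bins thus made up 65, 73.3 and 84.4% there, against 53.1, 50.5 and 46.4% of all bins, at the promoter, S2 and S4. Telomeric of S4 the medians were 0.15, 0.49 and 0.33 at the promoter, S2 and S4, with 20 of 41, 22 of 36 and 29 of 50 bins higher and 17, 11 and 15 lower. Higher bins made up 48.8, 61.1 and 58% there, against 36.5, 42.1 and 44.3% of all bins, and from the promoter higher and lower bins were nearly even. The promoter's median there turned to -0.13 within 1 Mb, with 37 bins higher and 40 lower, and to -0.02 with covered ends. Between S2 and S4, 6 were higher and 8 lower of 15 from the promoter, 7 higher and 4 lower of 14 from S2, and 11 higher and 3 lower of 15 from S4. Higher bins made up 40, 50 and 73.3% there. From S4 that share was larger than the 58% telomeric of S4, so an excess of higher bins was not particular to the telomeric side.

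**Figure D3:**
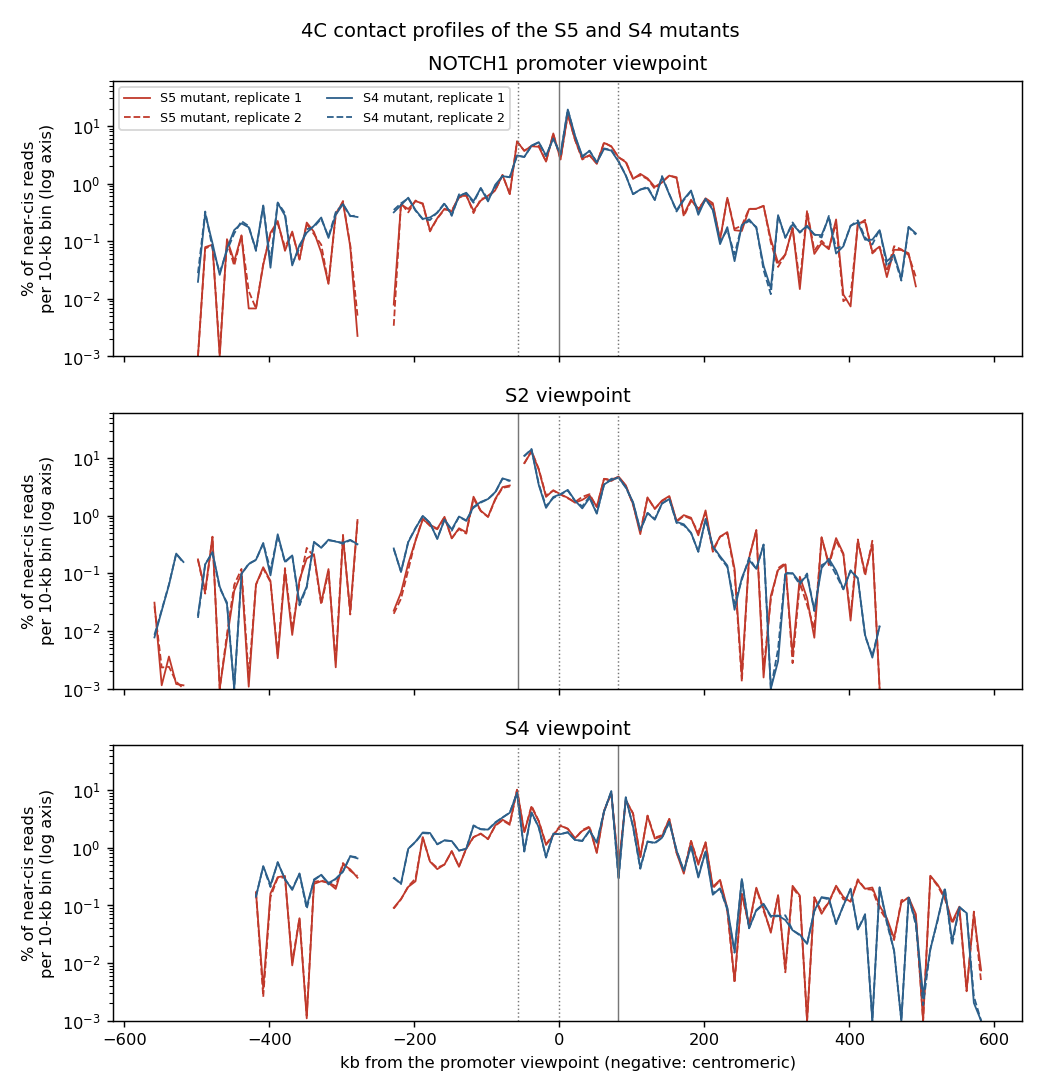
Percent of near-cis reads per 10-kb bin (vertical log axis, values under 0.001 drawn at 0.001) against distance from the promoter viewpoint in kb. S5 mutant libraries are red and S4 mutant libraries blue, with replicate 1 solid and replicate 2 dashed. The solid vertical line marks the panel's own viewpoint and the dotted lines the other 2, and gaps are bins not tested. Replicate lines lie almost on each other, and the blue lines run above the red ones over most of the centromeric side from S4.

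Among bins that held at least 0.5% of near-cis reads on average, those with the 4 largest gains in S5 from the promoter lay telomeric of S4. Bins with fewer reads, on both sides, reached larger folds. The bin from 139600001 to 139610000, 162 kb from the viewpoint, held 1.25 and 1.29% in S5, against 0.343 and 0.327% in S4 (log2 fold 1.92 ± 0.05 SE, edgeR adjusted p = 3.63e-95). Next to it, the bin from 139590001 held 1.37 and 1.38% in S5, against 0.647 and 0.658% in S4 (log2 fold 1.08). Nearer to S4, the bins from 139540001 and 139550001 rose by 0.90 and 0.86 on the log2 scale. These 4 lie within the 100 kb next to S4, where 7 of 10 bins were higher and 3 lower. One of the lower ones, from 139620001, held 0.523 and 0.501% in S5, against 0.757 and 0.736% in S4 (log2 fold -0.54), so gain and loss lay side by side.

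By the same limit of 0.5%, 2 of the 4 largest losses from the promoter lay centromeric of S2. The bin from 139370001 held 0.655 and 0.660% in S5, against 1.29 and 1.28% in S4 (log2 fold -0.97 ± 0.04 SE, edgeR adjusted p = 4.78e-57). Its telomeric neighbour from 139380001, which holds S2, held 5.35 and 5.40% in S5, against 3.08 and 3.03% in S4 (log2 fold 0.81 ± 0.02 SE, edgeR adjusted p = 1.37e-83). The sign of the difference thus switched between 2 adjacent bins at S2, as it also did between other neighbouring bins of this viewpoint. The bins from 139330001 and 139420001 fell by 0.67 and 0.33 on the log2 scale, and the last of these, which lies between S2 and the promoter, turned to a gain of 0.25 with covered ends. The bin holding S4, from 139520001, was higher in S5 by 0.24. The other 2 strong distant contacts of the promoter, the bins from 139500001 and 139510001, were higher by 0.35 and 0.22.

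From S2, the 4 named losses, again among bins with at least 0.5% of reads, lay on the centromeric side, and 3 of the 4 named gains lay toward the promoter or beyond it. The bin from 139340001, 40.9 kb from the viewpoint, held 0.957 and 0.951% in S5, against 1.94 and 1.94% in S4 (log2 fold -1.03 ± 0.03 SE, edgeR adjusted p = 4.05e-74). The bins from 139310001, 139300001 and 139360001 fell by 0.71, 0.69 and 0.52 on the log2 scale. As shares of covered ends, the bins from 139340001, 139300001 and 139360001 turned to 0.10, 0.03 and 0.11. The number of covered ends in the bin from 139340001 was 28 and 28 in S5, against 29 and 29 in S4. Toward the promoter, the bin from 139410001 held 6.29 and 6.45% in S5, against 3.41 and 3.53% in S4 (log2 fold 0.88 ± 0.03 SE, edgeR adjusted p = 9.27e-68). This was among the strongest contacts of S2 and lay between S2 and the promoter. Telomeric of S4, the bin from 139560001 held 2.06 and 2.07% in S5, against 1.11 and 1.12% in S4 (log2 fold 0.89), and the bin from 139620001 rose by 0.84, but had -0.09 with covered ends. A gain of 1.37 on the log2 scale was also found 221 kb centromeric of S2, in the bin from 139160001, which held 0.842 and 0.796% in S5, against 0.320 and 0.312% in S4.

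The contacts of S2 with the bins of the other viewpoints did not pass the test. The bin holding the promoter, from 139440001, held 2.35 and 2.33% in S5, against 2.36 and 2.35% in S4 (log2 fold -0.01 ± 0.03 SE, edgeR adjusted p = 0.719). The bin holding S4, from 139520001, held 4.78 and 4.70% in S5, against 4.55 and 4.61% in S4 (log2 fold 0.05 ± 0.03 SE, edgeR adjusted p = 0.116). Its neighbour from 139510001 held 4.00 and 4.24% in S5, against 4.17 and 4.37% in S4, with overlapping groups (log2 fold -0.05, edgeR adjusted p = 0.108). Another strong contact, the bin from 139500001, was higher in S5 by 0.33.

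From S4, the 4 named gains lay on both sides of S4 and the 4 named losses in the far centromeric region, while 9 of the 10 bins in the 100 kb next to S2 were also lower. The bin from 139560001, 41.3 kb telomeric of the viewpoint, held 3.59 and 3.64% in S5, against 1.29 and 1.28% in S4 (log2 fold 1.49 ± 0.02 SE, edgeR adjusted p = 1.05e-130). The bin from 139540001 held 3.92 and 3.97% in S5, against 2.33 and 2.31% in S4 (log2 fold 0.77). Between S2 and the promoter, the bins from 139390001 and 139420001 rose by 1.09 and 0.74. The bin holding the promoter was also higher, with 2.41 and 2.47% in S5, against 1.73 and 1.72% in S4 (log2 fold 0.50 ± 0.02 SE, edgeR adjusted p = 3.66e-52), but not with covered ends, which gave -0.03.

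The losses from S4 were the largest of the named bins. The bin from 139240001 held 0.263 and 0.294% in S5, against 1.28 and 1.26% in S4 (log2 fold -2.19 ± 0.03 SE, edgeR adjusted p = 3.70e-136). The bin from 139230001 held 0.211 and 0.215% in S5, against 0.964 and 0.967% in S4 (log2 fold -2.18). The bins from 139260001 and 139270001 fell by 1.63 and 1.39 on the log2 scale. All 4 belong to the far centromeric region. As shares of a library's covered ends, 3 of these 4 bins were slightly higher in S5, by 0.18, 0.19 and 0.19 for those from 139240001, 139260001 and 139270001. The numbers of covered ends were close, with 16 and 20 in S5, against 16 and 19 in S4, for the bin from 139240001. Reads there were concentrated: the most covered end held 42.9 and 46.8% of the reads of the bin from 139240001 in S5, against 27.4 and 27.8% in S4. At S2 itself, the bin from 139380001 held 10.2 and 10.2% in S5, against 8.87 and 9.05% in S4 (log2 fold 0.18), while its centromeric neighbour from 139370001 held 2.62 and 2.51% in S5, against 4.07 and 4.08% in S4 (log2 fold -0.67).

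The switch of sign at S2 was thus shared by the promoter and S4 viewpoints. In both, the bin from 139370001 was lower and the bin from 139380001, with S2, was higher in S5. Signs switched elsewhere too, as from the promoter between the bins from 139420001 (-0.33), 139430001 (0.29) and 139440001 (-0.29). A switch of sign therefore does not single out S2. For S4 the higher value of the bin with S2 turned to -0.15 with non-blind ends alone.

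**Figure D4:**
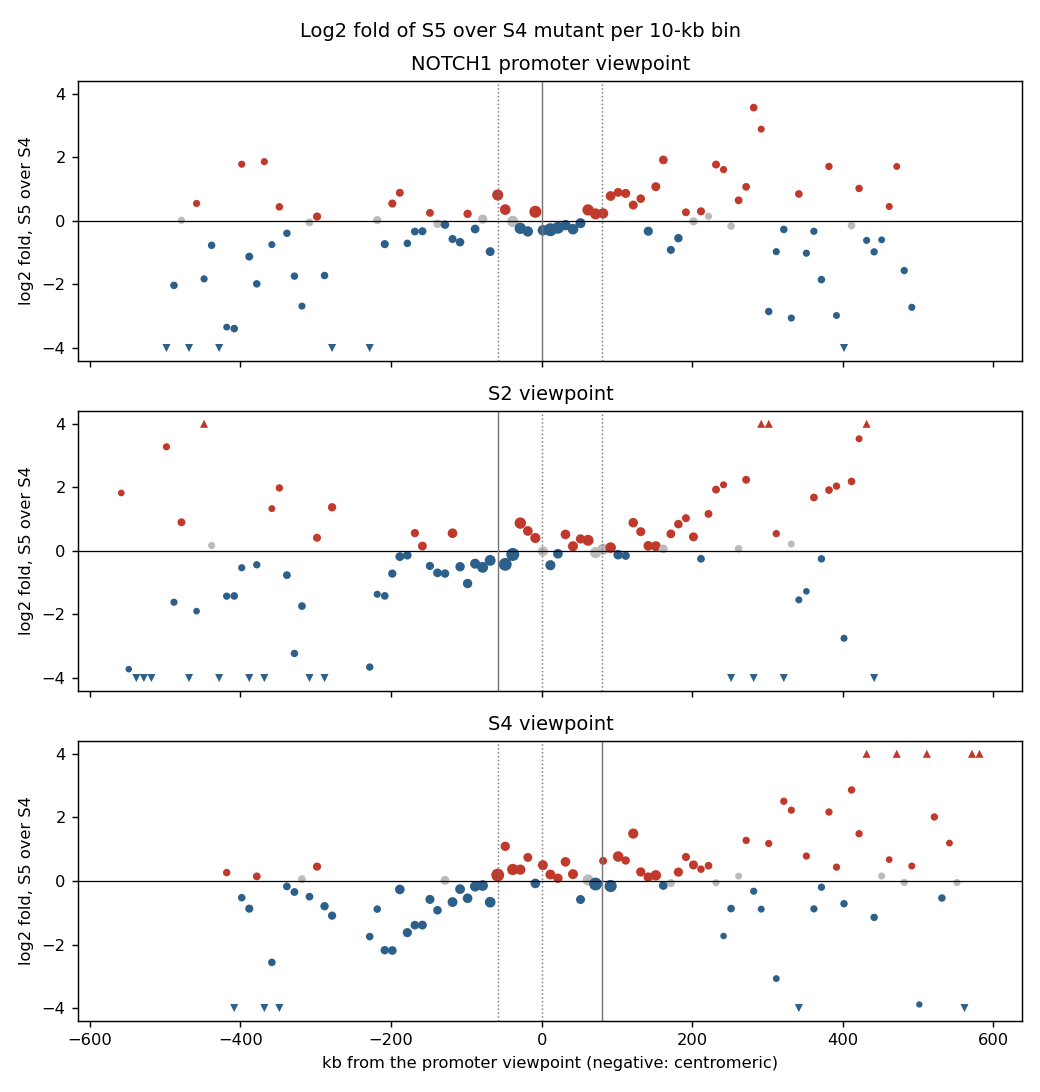
Log2 fold of the S5 mutant over the S4 mutant per 10-kb bin (vertical axis) against distance from the promoter viewpoint in kb, 1 panel per viewpoint. Red bins were higher and blue bins lower in S5 at an edgeR adjusted p under 0.05, grey bins did not pass, larger points hold more reads, and triangles mark folds beyond the axis. Solid and dotted vertical lines mark the panel's own and the other viewpoints. Blue points prevail on the centromeric side, and the distant bins on both sides scatter widely.

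Within the named bins, the most covered fragment end was mostly not the same in S5 and S4. In 29 of 36 named bins the most covered end of the S5 libraries was not that of the S4 libraries, and in the other 7 it was the same. The most covered end held 9.66 to 62.0% of a named bin's reads, with a median of 23.1% over libraries and bins. Counted end by end, among ends with a read in all 4 libraries, 370 of 788 from the promoter were higher in S5 without overlap (47%) and 352 were lower (44.7%). From S2, 413 of 1081 were higher (38.2%) and 545 lower (50.4%), and from S4, 469 of 1114 were higher (42.1%) and 534 lower (47.9%). Centromeric of S2, lower ends outnumbered higher ones from each viewpoint, with 72 higher and 91 lower of 190 from the promoter, 152 and 243 of 433 from S2, and 130 and 270 of 432 from S4. From the promoter, however, the lower share there was close to the 44.7% of all its ends. Telomeric of S4, higher ends outnumbered lower ones from the promoter (127 against 76 of 224) and from S4 (202 against 148 of 399), but not from S2 (134 against 162 of 346), where the higher share was close to that of all ends from S2.

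Agreement of single bins between viewpoints was limited. Of 82 bins tested at all 3 viewpoints, 8 were higher in S5 at all 3 (9.76%) and 14 were lower at all 3 (17.1%). Since most bins were called at each viewpoint, some agreement arises without any link between viewpoints, and an excess over that was not tested. The log2 folds of these bins correlated at r = 0.12 between the promoter and S2, 0.07 between the promoter and S4, and 0.30 between S2 and S4, over 82 bins that share position and, within a viewpoint, libraries. Of 32 bins centromeric of S2, 11 were lower at all 3 viewpoints (34.4%) and 1 was higher. Taken singly, the promoter, S2 and S4 had 65, 73.3 and 84.4% of their tested bins on that side lower. Of 36 bins telomeric of S4, 7 were higher at all 3 (19.4%) and 3 were lower (8.33%). Taken singly, the viewpoints had 48.8, 61.1 and 58% of their tested bins there higher. None of the 14 bins between S2 and S4 had the same called direction at all 3.

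The bins that agreed, which are listed for their position only, lay near both ends of the interval as well as far away. On the telomeric side, the bins from 139560001 and 139570001 were the only adjacent pair higher at all 3 viewpoints. The bin from 139560001 had log2 folds of 0.50, 0.89 and 1.49 at the promoter, S2 and S4, and that from 139570001 had 0.70, 0.60 and 0.28. Further bins higher at all 3 began at 139590001, 139630001, 139710001, 139820001 and 139860001. On the centromeric side, the bin from 139370001 next to S2 had log2 folds of -0.97, -0.30 and -0.67 at the promoter, S2 and S4. The bins from 139330001 and 139350001 were also lower at all 3, and the only adjacent pair began at 139100001.

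A running sum of the share from the centromeric end shows where the deficit of S5 built up and where it was made good. From S4 the difference between S5 and S4 reached -12.1 percentage points at 139388148, 2.28 kb telomeric of the centre of S2. By that position 29.1% of reads had been counted in S5 and 41.2% in S4. From S2 the lowest point was -11.9 points at 139408942, 23.1 kb telomeric of S2. From the promoter it was -6.69 points at 139496983, 53.7 kb telomeric of the promoter. For the S4 viewpoint the turning point, in each pairing of S5 with S4 libraries, lay between 139375952 and 139388148, and for the others all pairings gave the same end.

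**Figure D5:**
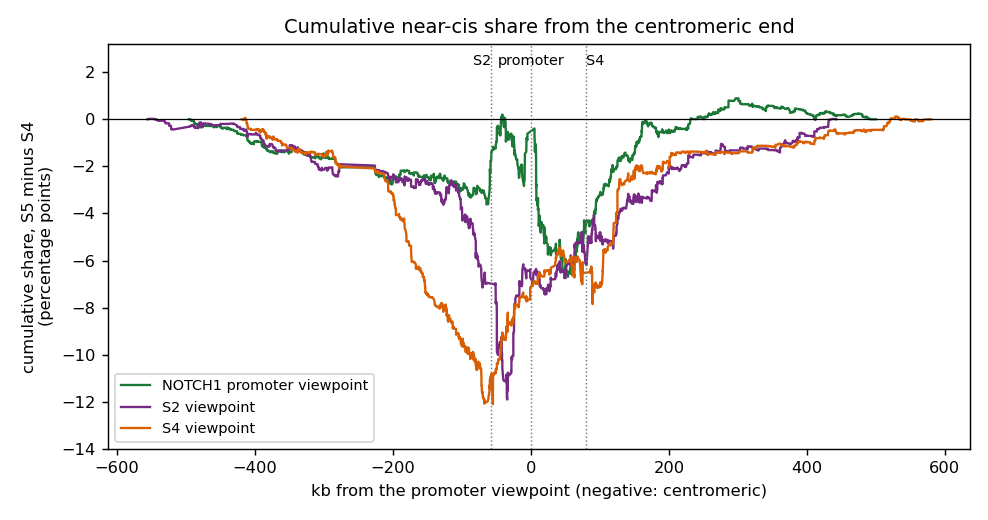
Difference between the S5 and the S4 mutant in the cumulative share of near-cis reads, in percentage points (vertical axis), summed from the centromeric end and plotted against distance from the promoter viewpoint in kb. Each line is 1 viewpoint and averages 2 libraries per genotype, and dotted lines mark the viewpoints. The S4 line falls to -12.1 close to S2, and the promoter line has its lowest value of -6.69 between the promoter and S4.

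By distance from the viewpoint, the bands did not shift in the same way at the 3 viewpoints. Reads within 50 kb made up 51.4 and 51.4% from the promoter in S5, against 57.0 and 56.6% in S4. From S2 they made up 41.1 and 41.3% in S5, against 44.5 and 44.6% in S4. From S4 the order was opposite, with 33.8 and 33.8% in S5, against 30.2 and 30.2% in S4. The slope of log10 reads per bp on log10 distance was close at the promoter, -1.21 in S5 and -1.21 in S4. It was shallower in S5 at S2, with -0.96 in S5 and -1.07 in S4, and steeper at S4, with -0.77 in S5 and -0.70 in S4.

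Single distance bands differed by side and by viewpoint. From S4, the band 200 to 500 kb centromeric held 10.3 and 10.3% in S5, against 18.7 and 18.6% in S4. On the telomeric side of S4, the band from 20 to 50 kb held 8.84 and 8.97% in S5, against 4.64 and 4.57% in S4. From S2, the band from 20 to 50 kb toward the promoter held 17.2 and 17.3% in S5, against 12.5 and 12.5% in S4, while the band from 5 to 20 kb on that side held 14.1 and 14.4% in S5, against 18.3 and 18.5% in S4. The contact of S2 toward the promoter thus lay farther out in S5. From the promoter, the band from 5 to 20 kb telomeric held 20.3 and 20.4% in S5, against 24.4 and 24.2% in S4, and the band from 100 to 200 kb telomeric held 9.66 and 9.49% in S5, against 6.89 and 6.96% in S4. On the centromeric side of the promoter, bands differed in direction. The band from 50 to 100 kb, where S2 lies, held 9.58 and 9.61% in S5, against 7.78 and 7.69% in S4. The band from 5 to 20 kb centromeric was higher again, with 9.61 and 9.48% in S5, against 8.44 and 8.45% in S4.

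Of reads outside the mask, slightly more were near-cis in S5. From the promoter 85.5 and 85.7% were near-cis in S5, against 82.9 and 83.1% in S4. At S2 the values were 87.8 and 88.2% in S5, against 87.5 and 87.6% in S4, and at S4 they were 89.7 and 89.9% in S5, against 88.7 and 88.7% in S4. Reads inside the mask were also a larger share of chromosome 9 in S5, 72.0 and 71.6% in S5, against 65.0 and 65.0% in S4 at S2, and 73.4 and 73.4% in S5, against 59.5 and 59.9% in S4 at S4. At the promoter they were 96.0 and 96.2% in S5, against 94.7 and 94.6% in S4. The part of these library differences in the regional pattern was not tested.

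Differences were as common far from the locus. Of 1-Mb windows of chromosome 9 lying wholly outside 500 kb, 63 of 70 passed the edgeR test from the promoter (90%), 55 of 57 from S2 (96.5%) and 52 of 59 from S4 (88.1%). From the promoter 36 were higher in S5 (51.4%) and 27 lower (38.6%), from S2 25 were higher (43.9%) and 30 lower (52.6%), and from S4 28 were higher (47.5%) and 24 lower (40.7%). Called windows with at least a 2-fold difference numbered 43 from the promoter (61.4%), 43 from S2 (75.4%) and 44 from S4 (74.6%), and S5 and S4 libraries did not overlap in 95.7, 98.2 and 96.6% of windows. With covered ends edgeR called 0 windows at each viewpoint, and 3, 1 and 1 windows had an unadjusted p under 0.05. These counts were small, such as 15 and 9 in S5 for the window from 124000001 at the promoter, and leave the test little room. So the share of windows called far away was close to the share of bins called within 500 kb.

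Among far windows with at least 1% of far-cis reads, the largest gains in S5 came from few fragment ends, and windows with fewer reads reached larger folds. From S2, the window from 71000001 to 72000000 held 2.69 and 2.72% of far-cis reads in S5, against 0.00786 and 0.00715% in S4 (log2 fold 8.49), and 4 and 7 of its 4101 ends had reads in S5, against 5 and 5 in S4. In the same libraries the most covered end held 68.7 and 68.3% of the window's reads in S5. From S2, the window from 117000001 had a log2 fold of 7.86 on 4 and 3 covered ends in S5. From S4, the windows from 123000001 and 94000001 had log2 folds of 7.42 and 6.52, and from the promoter those from 124000001 and 115000001 had 2.98 and 0.66. How many ligation products lie behind such values was not measured, and they are given as read shares only.

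Of 41 far windows tested at all 3 viewpoints, 8 were higher in S5 at all 3 and 4 were lower at all 3. With most windows called at each viewpoint, some agreement arises without a link between viewpoints, and an excess was not tested. The lower ones began at 33000001, 72000001, 98000001 and 137000001, and the last was the only one of them named by the rule. The window from 137000001 to 138000000, on the centromeric side of the locus, held 3.94 and 4.19% of far-cis reads from S2 in S5, against 13.6 and 13.7% in S4 (log2 fold -1.75 ± 0.04 SE, edgeR adjusted p = 1.57e-70). In libraries of the S4 viewpoint it held 3.66 and 3.88% in S5, against 9.61 and 9.37% in S4 (log2 fold -1.33 ± 0.04 SE, edgeR adjusted p = 7.48e-06). From the promoter its log2 fold was -0.60. From S2, 90 and 89 of its ends were covered in S5, against 115 and 107 in S4, and the most covered end of each library held 39.8 and 38.7% of its reads in S5, against 10.0 and 9.19% in S4. From S4 the most covered end held 48.5 and 44.2% in S5, against 7.42 and 7.21% in S4. With covered ends the S4 viewpoint gave 0.09 for this window. Other named losses were the windows from 126000001 and 133000001 at the promoter, which fell by 1.75 and 0.86, the window from 95000001 at S2, which fell by 1.18, and the window from 131000001 at S4, which fell by 0.91.

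The mutant that carries both changes and the S2 mutant give a scale for the ratio of telomeric to centromeric contact. From the promoter the S4-S5 mutant had 0.43 ± 0.00241, between 0.65 ± 0.00227 in S5 and -0.17 ± 9.97e-05 in S4 (SD, n = 2 each). From S4 it had 0.15 ± 0.00888, again between 0.36 ± 0.00930 in S5 and -0.74 ± 0.00268 in S4. From S2 it had 0.21 ± 0.00247, above both -0.02 ± 0.00644 in S5 and -0.80 ± 0.00246 in S4. In each case the S4-S5 mutant lay nearer to the S5 mutant than to the S4 mutant. The S2 mutant had 0.08 ± 0.00450 from the promoter, -1.22 ± 0.0222 from S2 and -0.68 ± 0.00328 from S4. Thus the order of the 4 mutants was not the same at the 3 viewpoints, and these differences were not tested.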

How the data were processed

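The tables hold read counts per fragment end of chromosome 9, which the authors deposited as raw whole numbers, 1 table per library. Per the labels' protocols, K562 chromatin fixed with formaldehyde was digested by DpnII, ligated, digested by a second enzyme (NlaIII or CviQI, not said for which viewpoint), ligated once more and amplified by PCR for 150-bp single-end sequencing. Per the submitters' processing notes, deepTools and the build hg19 are named, with neither role nor version. For the aligner and counter, the step was not given in the sources used here. The scaled and smoothed columns beside the counts were not used.

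Each viewpoint was placed mid-way in the most covered 5-kb window of its 10 libraries, wild-type ones included. Ends within 5 kb were masked, near-cis ends (within 500 kb) were summed in 10-kb bins and ends farther away in 1-Mb windows, and features with a mean under 10 reads were left out. Library sizes were near-cis or far-cis totals. edgeR 4.0.16 (R 4.3.3) was fitted to the 4 libraries of a viewpoint with its quasi-likelihood F test, two-sided, with Benjamini-Hochberg adjustment over the features of that viewpoint at 0.05, and was tested on simulated data. Shares were computed per library with pandas 2.3.3. DESeq2 1.42.0, TMM factors, chromosome 9 totals, other bins, windows, masks and filters, covered ends and capped ends were tried as alternatives.

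Bins were named by a rule: the 4 with the largest fold in each direction among called, non-overlapping bins with at least 0.5% of reads, those holding the other viewpoints, and the 3 strongest beyond 50 kb. Of far windows, the 2 largest in each direction with at least 1% of reads were named. Members, lists and tests were chosen with earlier results of these data known. The main fits did not use the replicate numbers as pairs, and the labels do not say whether same-numbered libraries belong together.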

Additional observations from a re-analysis of the deposited data

Results flagged for a closer look

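Inside the interval from S2 to S4, leaving out the 20 kb at a viewpoint seen from itself, viewpoints moved in opposite directions in 5 pairings, with both S5 libraries on 1 side of both S4 libraries in each. In the stretch from S2 to the promoter, the log2 ratio of S5 to S4 was higher from S2 than from the promoter by 0.42, and higher from S4 than from the promoter by 0.62. For the 20 kb at the promoter, it was higher from S4 than from S2 by 0.29. For the stretch from the promoter to S4, it was higher from S2 than from the promoter by 0.21, and higher from S4 than from the promoter by 0.19. In each pairing the lower viewpoint had a deficit and the higher one an excess of reads in S5. The difference was not tested in any of them. Under TMM factors or DESeq2 size factors the deficit of the promoter in the stretch to S4 became an excess, and DESeq2 size factors did the same for the 20 kb at the promoter seen from S2. Covered ends turned the promoter's deficits to 0.23 from S2 to the promoter and to 0.20 from the promoter to S4, and turned the 20 kb at the promoter seen from S2 to 0.16. Non-blind ends turned the excess of S2 in the stretch to the promoter to -0.11.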

How the results depend on the processing

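The log2 ratio of reads beyond S4 to reads beyond S2 was higher in S5 at each viewpoint in every alternative tried for it, and changed most with covered ends. From the S4 viewpoint the covered-end difference was about as large as the spread among the libraries. The differences between S5 and S4, at the promoter, S2 and S4, became 0.77, 0.54 and 0.90 within 250 kb, 0.76, 0.81 and 1.04 within 1 Mb, 0.72, 1.09 and 1.12 with non-blind ends, 0.79, 0.77 and 1.08 in the common window, and 0.16, 0.087 and 0.039 with covered ends. A 20-kb mask gave 0.79 at S2 and 1.19 at S4, and capping ends at the 99th percentile gave 1.06 at S4. Leaving out 1 library gave 0.82 to 0.82, 0.77 to 0.78 and 1.09 to 1.10. All of these were added after the data were seen. Counts of called bins at the promoter, S2 and S4 were 162, 164 and 177 with 5-kb bins, 48, 47 and 49 with 20-kb bins, 45, 42 and 47 within 250 kb, 164, 170 and 164 within 1 Mb, and 0, 0 and 0 with covered ends. The first 4 settings change how many bins are tested, and covered-end counts are too small for 0 calls to show an absence of difference. Called far windows numbered 37 at the promoter with 2-Mb windows, 84 at S2 and 86 at S4 with 500-kb windows, and 0 at each viewpoint with covered ends. The cause was not tested. Without 1 library, 82 to 84, 83 to 90 and 86 to 89 bins and 61 to 64, 55 to 56 and 51 to 54 windows were called. Deviations of same-numbered libraries correlated weakly (r = -0.07, 0.07 and 0.15 at the promoter, S2 and S4). With 2 libraries per genotype this cannot show whether same-numbered libraries were prepared together. The promoter's median bin telomeric of S4, 0.15, became -0.13 within 1 Mb and -0.02 with covered ends. The fit with the replicate block called 85, 90 and 90 bins and 64, 54 and 51 windows.

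Values with covered ends are shares of a library's own covered ends, which were fewer in S5. Named bins that changed sign with covered ends were, at the promoter, that from 139420001 (0.25). At S2 they were those from 139620001 (-0.0929), 139340001 (0.10), 139300001 (0.032) and 139360001 (0.11). At S4 they were those from 139240001 (0.18), 139260001 (0.19), 139270001 (0.19) and 139440001 (-0.025). Among far windows, those from 117000001 (-0.44) and 95000001 (0.070) at S2 and from 137000001 (0.085) at S4 changed sign. Non-blind ends turned the bin from 139380001 at S4 (-0.15). Regions that changed sign with covered ends were, at the promoter, S2 to promoter (0.23), 20 kb at the promoter (0.22), promoter to S4 (0.20) and far telomeric (-0.0827). At S2 they were the 100 kb centromeric of S2 (0.030), 20 kb at S2 (0.070) and 20 kb at the promoter (0.16). At S4 they were the 100 kb centromeric of S2 (0.0087), 20 kb at S4 (0.14) and far telomeric (-0.0832). Non-blind ends turned 20 kb at the promoter seen from the promoter (0.087), S2 to promoter from S2 (-0.11) and 20 kb at S2 from S4 (-0.082). Capped ends turned 20 kb at S4 from S4 (0.14), and the 1-Mb window turned far telomeric from the promoter (-0.0039). At the promoter, TMM factors turned 20 kb at the promoter (0.011) and promoter to S4 (0.033), as did DESeq2 size factors (0.11 and 0.13), which also turned 20 kb at the promoter from S2 (0.036). The cause was not tested. Few covered ends per far window, and the absence of molecular identifiers, limit the precision of every share.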
